A study of Mus musculus with 23 samples.

Results

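Clonal cell lines labelled Type 1 were set against every other line from the same fat depot. The submitters call all of these lines preadipocytes. In Type 1 mesothelial genes were raised, and Pdgfrb, the Ebf genes and Pparg were lower than in the other lines. The progenitor markers Cd34 and Cd55 went the other way, and Pdgfra gave no difference that passed. The Type 1 lines are therefore called here by their label alone. The comparison used the 11 lines whose clone name begins with PGF, taken as perigonadal fat, of the 23 lines in the series. The label Type 1 was carried by 3 of them (PGF2-8, PGF3-4 and PGF3-11), and the other 8 carried Type 2 (PGF3-2), Type 3 (PGF2-2, PGF2-5, PGF3-3 and PGF3-15) or Other (PGF2-4, PGF3-5 and PGF3-6). All 3 Type 1 lines of the series are perigonadal, so this choice puts the same depot on both sides, and the 12 subcutaneous lines (names beginning with SCF) are given only side by side.

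Each line was grown from 1 cell of the stromovascular fraction, the non-fat cells of adipose tissue, and all came from a single male Immortomouse aged 8 weeks. Cells of this mouse strain carry a temperature-sensitive viral growth antigen that interferon gamma switches on. Both sides of the comparison had been kept in that state, at 33 °C, with interferon gamma at 10 units/mL. The cells were sorted with no gate on surface markers, so nothing in the sort selected preadipocytes from other cells of the fraction. Expression was measured once per line on an array, and levels are the deposited log2 signal. The labels do not say whether the RNA came from growing or differentiated cells. The submitters formed the types by clustering expression data of these lines, so a difference between types describes how the groups were drawn and is not independent evidence for them. With 1 mouse behind every line, the p-values measure the spread between clones and say nothing of other mice.

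Perigonadal fat lies in the abdominal cavity and is covered by mesothelium, a sheet of flat cells with keratins, apical membrane proteins and cell junctions that comes from coelomic lining. Mesothelial cells are known for the transcription factor Wt1, and in embryonic visceral fat Wt1-positive cells are known to contribute to the progenitors of fat cells. Fat cell progenitors are fibroblast-like cells known for platelet-derived growth factor receptors, early B-cell factors and, once committed, Pparg and Cebpa.

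Of 12000 genes tested with limma, 2810 passed an adjusted p of 0.05 (23.4%), 1595 of them higher in Type 1 (13.3%) and 1215 lower (10.1%). The median difference over all 12000 was 0.01 on the log2 scale. Among the genes that passed, 587 were more than 2-fold higher (4.89% of all tested) and 569 more than 2-fold lower (4.74%). In 2445 genes (20.4%) the 3 Type 1 lines did not overlap the 8 other lines (1370 above them, 11.4%, and 1075 below, 8.96%), and 2140 of these also passed the test. Against the labels taken 1 at a time, with the spread shared over all 11 lines, 2927 genes passed against the 4 Type 3 lines (24.4%, with 13.3% higher and 11.1% lower), 1728 against the 3 Other lines (14.4%, with 8.84% higher and 5.56% lower) and 798 against the lone Type 2 line (6.65%, with 3.45% higher and 3.2% lower), whose spread is assumed to equal that of the other labels. In the same direction, 1447 passed against both Type 3 and Other, and 635 against all 3 labels. Of the 2810 genes, 2809 had the same sign against each of the 3 labels.

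The lines did not weigh equally in these counts. PGF2-8 had a 3′ minus 5′ actin signal of 1.58 log2 units and 0.26 for Gapdh, against 0.53 to 1.00 for actin in the 10 other PGF lines. That difference is commonly read as a measure of RNA integrity. Without PGF2-8, 1739 genes passed, 1654 of which had also passed with all 11 lines. Without PGF3-11, 1730 passed, and without PGF3-4, 2278. Leaving out 1 of the 8 other lines gave 2378 to 3119 genes, with the most when PGF3-6 was left out. PGF3-5 stood apart in another way, with raised mesothelial genes described below. Without PGF2-8 and PGF3-5 together, an alternative added after the data were seen, 1925 genes passed, 1037 higher and 888 lower.

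**Figure D1:**
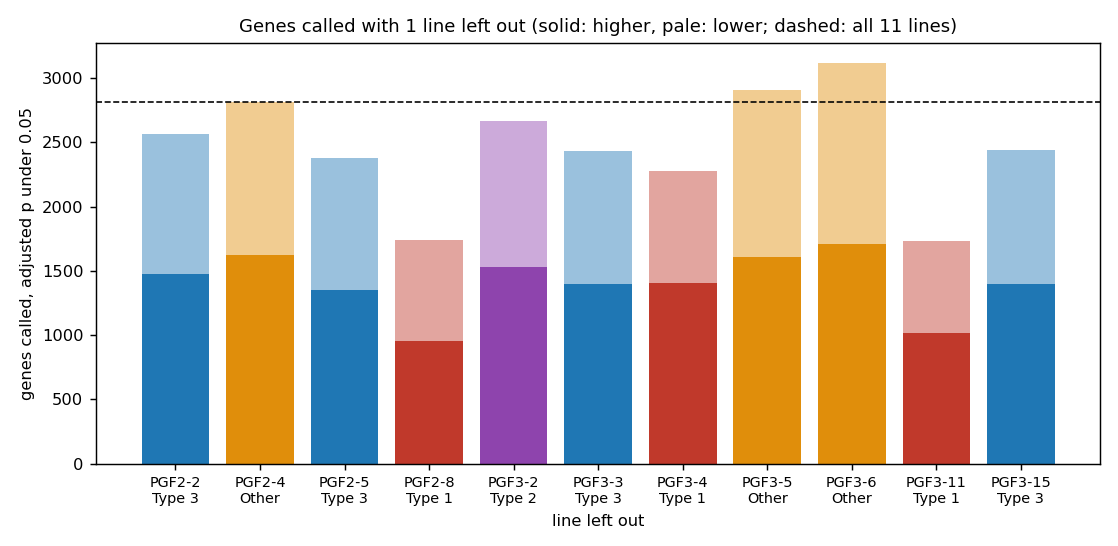
Genes passing an adjusted p of 0.05 (vertical axis, number of genes) in 11 refits, each without the line named on the horizontal axis; solid bars are genes higher in Type 1 and pale bars genes lower, coloured by label. The dashed line is the 2810 genes of all 11 lines, and the bars run from 1730 without PGF3-11 to 3119 without PGF3-6.

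The labels also score each line from 1 to 4 for differentiation and for media acidification. All 3 Type 1 lines scored 2 for differentiation. The 8 other lines scored 2 to 4 with a mean of 3.12 ± 0.83 (SD, n = 8), and the difference of -1.12 did not pass an exact two-sided permutation test (p = 0.121). Acidification averaged 3.33 ± 1.15 (SD, n = 3) against 2.00 ± 1.20 (SD, n = 8), a difference of 1.33 that did not pass either (exact two-sided permutation p = 0.194). The smallest p that 3 lines against 8 can give is 0.0121, and ties between lines can raise it. Several PGF lines tie at a differentiation score of 2, and none scored lower. With those ties 0.121 was the smallest p possible for a lower Type 1 score. The differentiation test could thus not pass in that direction, and its outcome decides nothing. Since all Type 1 lines share a low score, the differentiation score moves with the label. With it as a covariate, 1602 genes passed.

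Genes of several kinds were raised most in Type 1, among them members of the mesothelial list, a kinase, secreted factors and transcription factors. The 15 with the largest difference, among genes whose groups did not overlap, were Stk26, Lrrn4, Krt18, Upk3b, Cd200, Lratd2, Bmp4, Wt1, Zic1, Igfbp2, Gabra4, Upk1b, Bnc1, Ddx4 and Rspo1. In 5 of them (Lrrn4, Cd200, Zic1, Gabra4 and Rspo1) no other PGF line was above the table's median of 5.13, so they entered the test through Type 1 alone. Likewise, 4 of the 15 genes lowered most (Ebf1, Galnt13, Sncg and Sned1) had no Type 1 line above it. Of genes given further on, Podxl, Msln, Krt8, Hand2, Pard6b, Wnt9a, Cyp26a1, Col8a2, Esam and Erbb3 also entered through Type 1 alone. Lower genes with no Type 1 line above that median included Ebf2, Ebf3, Zfp423, Fabp4, S1pr1, Ptges, Tnxb, Snai1, Tek and Rnase10. The filter itself favoured a difference in all of these genes, so their p-values are not separate support for it. The ratio of deposited signals ran from 63.1 to 279 over the 15 raised genes. Without detection calls the low side is not shown to lie above background, so these and the folds given with single genes are ratios of signal that need not equal the ratio of RNA. Krt18, a keratin of simple epithelia, read 12.27 in PGF2-8, 10.70 in PGF3-4 and 12.13 in PGF3-11, against 3.43 to 6.11 with a median of 3.49 in the 8 other lines. The Type 1 lines lay far above all others, and the highest of the others was PGF3-5. In RNA of a whole line, fewer cells of a kind and less RNA per cell cannot be told apart. The difference was 7.87 ± 0.55 (234-fold, adjusted p = 2.42e-06), where the error of a difference is its standard error in limma throughout. Lrrn4, a leucine-rich repeat membrane protein of mesothelium, read 11.33 in PGF2-8, 10.96 in PGF3-4 and 10.77 in PGF3-11, against 2.81 to 4.37 with a median of 3.02, a difference of 7.87 ± 0.29, adjusted p = 1.11e-08. The kinase Stk26 had the largest difference with 1 probe set kept per gene, 8.12 ± 0.52 (279-fold, adjusted p = 1.18e-06). Its levels were 12.72, 11.94 and 12.17 in the 3 Type 1 lines and 3.53 to 6.44 with a median of 3.90 in the others, with the groups far apart. Upk3b and Upk1b, uroplakins of urothelium and mesothelium, differed by 7.54 ± 0.49 and 6.21 ± 0.32. Cd200, a ligand for an inhibitory receptor on myeloid cells, read 10.29, 10.07 and 10.22 against 2.84 to 3.94 with a median of 3.32, 6.82 ± 0.24, adjusted p = 8.92e-09. The 3 Type 1 lines differed by little in this gene. The 15 were chosen for not overlapping any other PGF line, and each kept its call whichever line was left out.

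Over the whole list of mesothelial surface, keratin and matrix genes, 21 of 24 were tested, and 14 rose, 1 fell and 6 did not pass, with a median difference of 4.56 beside 0.01 for all genes (without PGF3-6, 2 fell). In 6 of the 14 no other PGF line was above the table's median, so these entered the test through the Type 1 lines alone. Further members that rose were Podxl (5.23 ± 0.17), a sialomucin of apical membranes, Rspo1 (5.98 ± 0.27), a secreted amplifier of Wnt signalling, the zinc finger factor Bnc1 (6.02 ± 0.60), Ildr2 (4.72 ± 0.35) and the scaffold protein Slc9a3r1 (4.56 ± 0.28). Efemp1, a fibulin of the matrix that mesothelial cells secrete, fell (-1.75 ± 0.31, adjusted p = 0.0019). Mesothelin itself, Msln, the surface protein the tissue is known for, was uneven. It read 8.87 in PGF2-8, 5.27 in PGF3-4 and 6.98 in PGF3-11, against 3.31 to 3.66 with a median of 3.61, so that PGF2-8 was highest and PGF3-4 lowest of the Type 1 lines while none overlapped the others (3.50 ± 0.52, adjusted p = 6.60e-04).

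The keratins did not move together within Type 1. Krt8, the usual partner of Krt18 in a filament, read 11.07 in PGF2-8, 5.17 in PGF3-4 and 11.09 in PGF3-11, against 4.57 to 4.89 with a median of 4.72. PGF3-4 thus had Krt18 at 10.70 and Krt8 only just above the other lines, and 3 probe sets for Krt8 showed the same gap. The difference of 4.39 ± 0.97 (adjusted p = 0.00732) was not called without PGF2-8 or PGF3-11, where the adjusted p reached 0.051. Krt7 read 10.99, 6.65 and 7.54, in the same order of lines as Msln, against 3.87 to 5.63 with a median of 4.43 (3.78 ± 0.72, adjusted p = 0.00312). Krt19 did not pass: it read 5.14, 4.97 and 6.37 in Type 1 and 4.96 to 9.76 with a median of 6.03 in the other lines (adjusted p = 0.381). Calb2, which encodes the mesothelial marker calretinin, was at 4.66, 4.85 and 4.94 and did not pass (-0.30 ± 0.13). Gpm6a and Muc16, above the table's median in too few lines to be tested, followed the order of Msln as well: Gpm6a read 10.63, 3.67 and 6.83 and Muc16 8.04, 4.97 and 6.25, with no other PGF line above 3.44 and 3.27. In these 4 genes (Msln, Krt7, Gpm6a and Muc16) PGF2-8, the line with the high actin ratio, was the highest of the 3; the part of RNA integrity in that order was not tested.

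**Figure D2:**
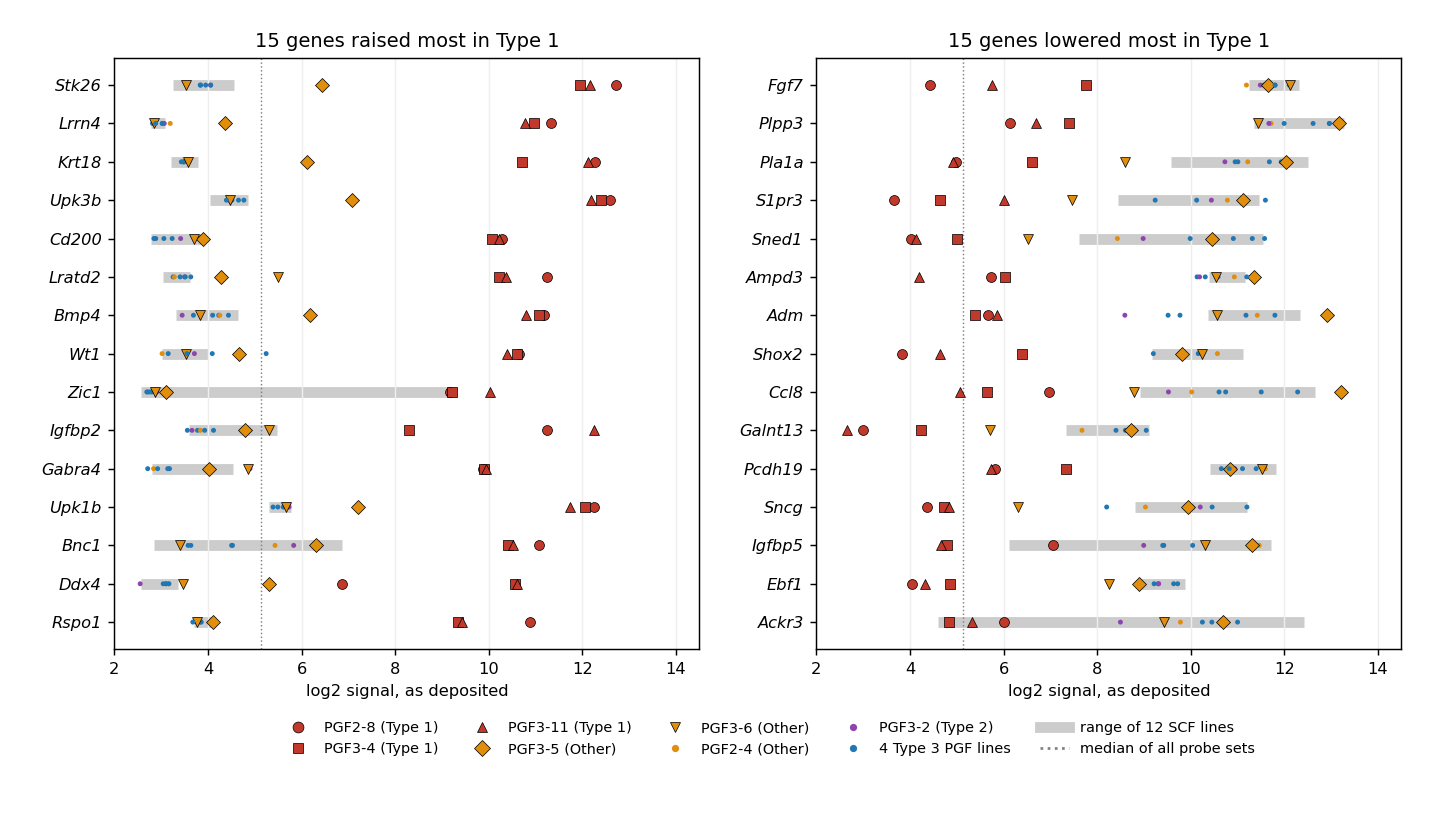
Log2 signal (horizontal axis) of the 15 genes raised most and the 15 lowered most in Type 1 (vertical axis); large red marks are the 3 Type 1 lines, other colours the 8 other PGF lines by label, grey bars the range of the 12 SCF lines and the dotted line the median of all probe sets. Red marks do not overlap the other PGF lines in any of the 30 genes, PGF3-5 is the highest of the others in genes such as Krt18 (6.11) and Upk3b (7.08), and the grey bars of Zic1, Igfbp5 and Ackr3 reach the red marks.

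Transcription factors of visceral and coelomic mesoderm were split. Of 22 tested, 7 rose and 3 fell, with a median difference of -0.02. Wt1, a zinc finger factor of mesothelium, kidney and gonad, read 10.64 in PGF2-8, 10.61 in PGF3-4 and 10.40 in PGF3-11, against 3.02 to 5.24 with a median of 3.63, and differed by 6.68 ± 0.41 (103-fold, adjusted p = 8.28e-07). Gata6, a GATA factor of visceral organs and peritoneal macrophages, read 11.22, 11.05 and 11.08, against 6.10 to 6.82 with a median of 6.46. Its 3 Type 1 values were nearly equal, and the difference was 4.64 ± 0.13, adjusted p = 2.12e-09. Hand2, a factor of lateral mesoderm, differed by 4.86 ± 0.32, and the homeobox genes Meis2 (1.65 ± 0.28), Emx2 (1.29 ± 0.29) and Meis1 (1.27 ± 0.30, not called without PGF2-8 or PGF3-11, where the adjusted p reached 0.0618) also rose. The members that fell are known in mesenchyme: Osr1, a factor of connective tissue progenitors, read 4.41, 5.45 and 5.47, against 8.59 to 10.29 with a median of 9.56 (-4.44 ± 0.39, adjusted p = 1.53e-05). The other 2 were the forkhead gene Foxc1 (-2.73 ± 0.41) and Tbx18 (-0.94 ± 0.22, not called without PGF2-8, where the adjusted p reached 0.0572). Gata4 (0.42 ± 0.24) did not pass, and Tcf21, a factor of visceral fat progenitors, was not above the table's median in enough lines to be tested, at 3.93 to 4.35 in the 8 other lines and 4.18, 4.23 and 4.13 in Type 1.

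Factors of limb and body wall mesenchyme fell. Of 12 tested, 2 rose and 7 fell, with a median difference of -1.45, and 6 or 7 fell whichever line was left out. Shox2, a homeobox gene of the proximal limb, read 3.83 in PGF2-8, 6.39 in PGF3-4 and 4.64 in PGF3-11, against 9.20 to 10.57 with a median of 10.01 (-5.04 ± 0.43, adjusted p = 1.19e-05). The paired-related homeobox genes Prrx1 and Prrx2 differed by -2.83 ± 0.20 and -4.02 ± 0.46, with no overlap of the groups. Tbx15, a T-box gene known from subcutaneous fat, read 7.18, 5.90 and 6.09, against 8.10 to 9.79 with a median of 8.43 (-2.25 ± 0.38, adjusted p = 0.00145). A further Tbx15 probe set differed by -0.78 and did not pass. Twist2 (-2.53 ± 0.43) and Pax3 (-1.61 ± 0.34) fell, as did Twist1 (-0.76 ± 0.21, not called without PGF3-4 or PGF3-11, where the adjusted p reached 0.0954). Zic1, a zinc finger gene of neural and paraxial tissue also known from brown fat, went the other way with little spread on either side. It read 9.18 in PGF2-8, 9.21 in PGF3-4 and 10.02 in PGF3-11, against 2.69 to 3.09 with a median of 2.84, and differed by 6.62 ± 0.17, adjusted p = 9.52e-10. It was not particular to Type 1 in the series, since SCF3-11, a Type 2 subcutaneous line, read 9.19. Msx1 rose by 0.57, but another probe set for it had the opposite sign.

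Cell junction genes that passed all rose and most genes of the mesenchymal state that passed fell, with the classical epithelial cadherin near the bottom of the scale in all lines. Of 17 junction and epithelial genes tested, 8 rose and 0 fell (median 0.75), and the count was 8 or 9 with any line left out. Cdh3, placental cadherin, read 8.87 in PGF2-8, 8.73 in PGF3-4 and 8.65 in PGF3-11, against 5.52 to 5.76 with a median of 5.60 (3.13 ± 0.08, adjusted p = 9.52e-10). F11r, junctional adhesion molecule A, read 12.20, 11.82 and 11.88, against 7.53 to 9.34 with a median of 8.48 (3.56 ± 0.38, adjusted p = 5.76e-05). Only 1 of 2 probe sets for F11r passed, and the other differed by just 0.14. Pard6b, a polarity protein, differed by 4.34 ± 0.19, and Pkp2, plakophilin of desmosomes, by 2.57 ± 0.57. The tight junction proteins cingulin (Cgn, 2.11 ± 0.18) and Tjp1 (1.47 ± 0.22), plakoglobin (Jup, 1.93 ± 0.20) and the epithelial splicing factor Esrp2 (1.75 ± 0.21) rose as well. Cdh1, epithelial cadherin, was too low to be tested, at 3.47, 4.25 and 3.06 in Type 1 and 2.65 to 3.00 in the others. Epcam (-0.26 ± 0.16) and Cdh2, neural cadherin (0.48 ± 0.41), did not pass. Of 15 mesenchymal genes, 1 rose and 8 fell, with a median difference of -0.55. Snai2, a repressor of epithelial genes, read 8.19, 9.98 and 9.48, against 11.19 to 13.14 with a median of 12.82 (-3.43 ± 0.42, adjusted p = 1.84e-04), and S100a4, a calcium-binding protein of fibroblasts, differed by -3.30 ± 0.30. Zeb2 fell by 1.69, and Snai1, at 4.74, 4.74 and 4.72 against 5.08 to 7.82 with a median of 6.61, differed by -1.79 ± 0.51 and was not called without PGF2-8, PGF3-4 or PGF3-11, where the adjusted p reached 0.0863. Vim, vimentin, stayed high in all lines and fell by only 0.55 (not called without PGF2-8 or PGF3-11, where the adjusted p reached 0.102), and Fn1, fibronectin, was the member that rose (0.98 ± 0.17). The count of 8 became 4 without PGF3-11 and 5 without PGF3-4, and 2 rose without PGF3-5 or PGF3-6. With either label score as a covariate 4 fell.

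**Figure D3:**
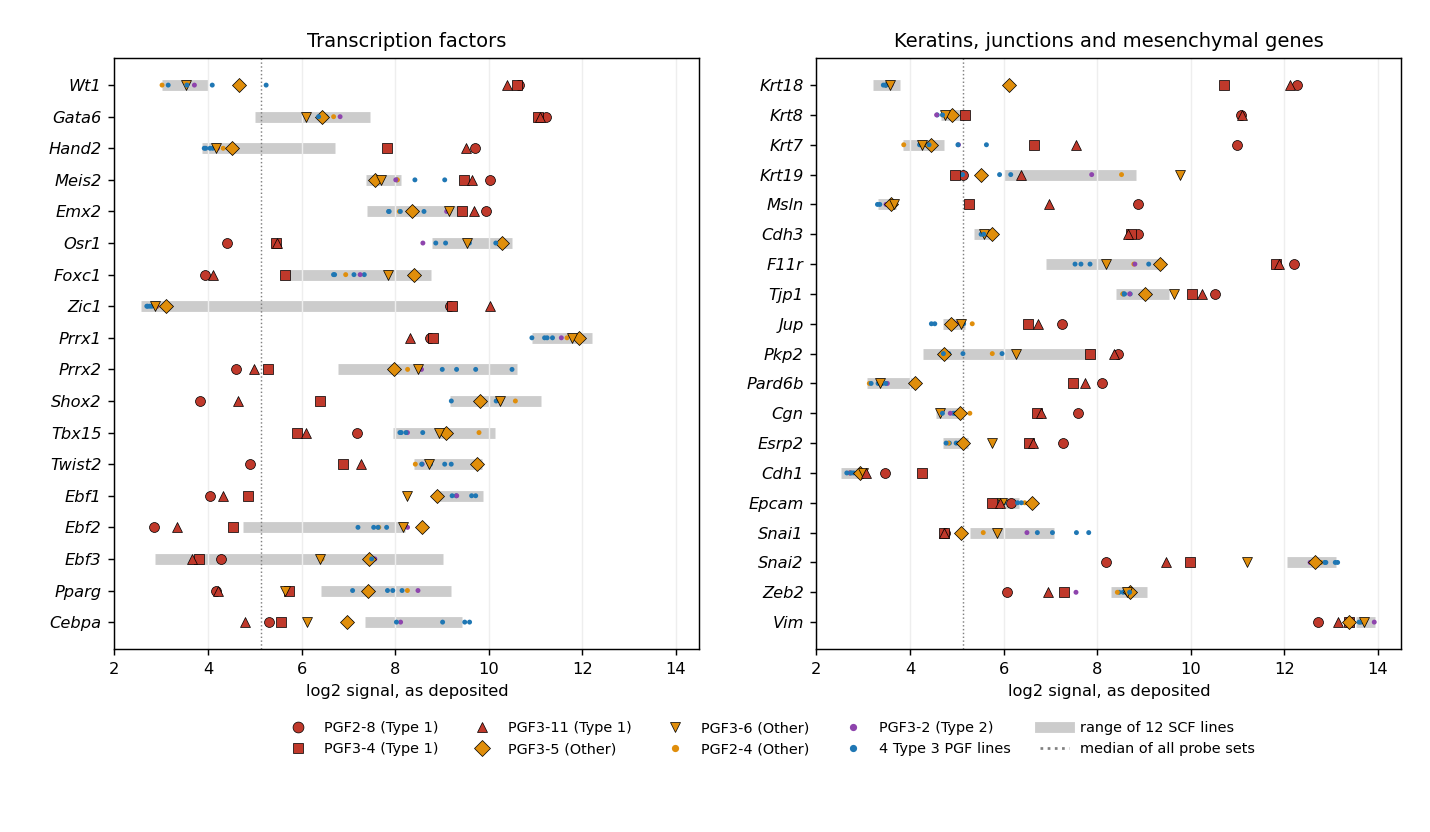
Log2 signal (horizontal axis) of transcription factors and of keratin, junction and mesenchymal genes (vertical axis), with the same marks for lines, SCF range and table median as in the plot of the 30 genes. Wt1, Gata6 and Cdh3 form tight Type 1 groups, Krt8 has PGF3-4 apart from the other 2 Type 1 lines (5.17 against 11.07 and 11.09), and the Ebf genes lie below all other PGF lines.

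Promoters of 4 of these genes are shown because Snai1, Snai2 and Zeb2 belong to the families known to bind the E-box CAGGTG. They are the only ones, among the promoters found in the table for the 15 genes raised most and the 8 raised junction genes, whose 250 bases before the start site held those letters. The sequences are from RefSeq (GRCm38.p6), 5′ to 3′ on the gene's strand, and capitals mark CAGGTG or its reverse complement. Krt18 lies on chr15:102027966-102028215 (plus strand), Bmp4 on chr14:46390670-46390919 (minus strand), F11r on chr1:171437311-171437560 (plus strand) and Pard6b on chr2:168080754-168081003 (plus strand).
Krt18 promoter: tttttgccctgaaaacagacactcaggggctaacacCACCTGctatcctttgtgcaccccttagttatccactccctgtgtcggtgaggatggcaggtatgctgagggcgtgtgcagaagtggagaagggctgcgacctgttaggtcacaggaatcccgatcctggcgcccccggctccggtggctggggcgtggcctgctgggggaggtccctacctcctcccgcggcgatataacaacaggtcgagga
Bmp4 promoter: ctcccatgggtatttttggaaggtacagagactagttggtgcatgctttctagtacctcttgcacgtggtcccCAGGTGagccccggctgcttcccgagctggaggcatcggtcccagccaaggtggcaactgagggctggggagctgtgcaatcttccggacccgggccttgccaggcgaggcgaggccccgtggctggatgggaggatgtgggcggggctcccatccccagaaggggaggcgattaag
F11r promoter: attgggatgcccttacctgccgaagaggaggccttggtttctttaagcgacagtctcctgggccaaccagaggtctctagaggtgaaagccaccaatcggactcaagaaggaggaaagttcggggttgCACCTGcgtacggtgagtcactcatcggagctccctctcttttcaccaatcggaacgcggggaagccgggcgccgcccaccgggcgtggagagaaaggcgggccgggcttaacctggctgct
Pard6b promoter: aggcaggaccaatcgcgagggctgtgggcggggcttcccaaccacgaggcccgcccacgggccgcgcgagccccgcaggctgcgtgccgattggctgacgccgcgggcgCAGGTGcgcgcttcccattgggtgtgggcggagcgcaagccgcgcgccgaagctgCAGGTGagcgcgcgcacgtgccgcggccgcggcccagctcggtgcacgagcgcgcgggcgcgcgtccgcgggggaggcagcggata
Of the 15 genes raised most, 12 had a promoter in the table and 2 held the motif (16.7%), against 17.1% of all 27025 promoters. Of the 15 genes lowered most, 14 had a promoter and 0 held it. Of the 8 raised junction genes, 5 had a promoter and 2 held it (40%). The palindromic early B-cell factor motif and the Wt1 motif GCGTGGGNG, searched on both strands, were in 0 of these promoters, against 0.788% and 1.61% of all. A match is only a run of letters in this window and says nothing of binding.

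Growth factors and their receptors changed on both sides. Bmp4, a ligand known to commit progenitors to fat and to pattern mesoderm, read 11.18 in PGF2-8, 11.08 in PGF3-4 and 10.80 in PGF3-11, against 3.45 to 6.18 with a median of 4.16, with PGF3-5 again the highest of the others. It differed by 6.75 ± 0.45 (107-fold, adjusted p = 1.67e-06). Of 33 tested genes of the BMP and TGF-beta pathways, 5 rose and 5 fell (30.3% called, beside 23.4% of all genes), with a median of 0.01. Among ligands, Tgfb3 rose (2.85 ± 0.29) and Gdf10 fell (-4.40 ± 0.85). Among modulators, the BMP-binding protein Bmper rose (3.22 ± 0.47), while the BMP antagonist Grem1 (-3.86 ± 0.56), the latency protein Ltbp1 (-4.66 ± 0.55) and the activin antagonist Fstl3 (-1.17 ± 0.20) fell. The Type 1 lines read 4.59, 7.57 and 5.40 for Grem1, below all 8 others (median 9.84). Among receptors, Bmpr1a rose by 0.84 and Tgfbr3, betaglycan, fell by 3.05 (adjusted p = 6.41e-05).

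Fgf7, keratinocyte growth factor, a mesenchymal ligand for epithelial receptors, had the largest drop with 1 probe set kept per gene, though a further probe set of Plpp3, Ebf1 or Adm fell by more (6.01, 5.86 and 5.76). It read 4.43 in PGF2-8, 7.77 in PGF3-4 and 5.75 in PGF3-11, against 11.19 to 12.12 with a median of 11.73. Every Type 1 line was below every other line, with PGF3-4 the least low, and the difference was -5.73 ± 0.51 (53.3-fold lower, adjusted p = 1.5e-05). Fgfr2, the receptor whose epithelial splice form binds Fgf7, rose (1.85 ± 0.24, adjusted p = 2.66e-04), as did Fgf18 (2.10 ± 0.49) and Fgfr3 (0.60 ± 0.14, not called without PGF3-11, where the adjusted p reached 0.0528). In all, 4 of 17 genes of the fibroblast growth factor list rose and 1 fell (29.4% called, beside 23.4% of all genes). In that list 2 rose without PGF3-11 and 2 fell without PGF2-8 or PGF3-6. Of 31 Wnt pathway genes, 5 rose and 5 fell (32.3% called, beside 23.4% of all genes, median -0.10). Axin2, a feedback target of Wnt signalling, rose (1.75 ± 0.13, adjusted p = 3.73e-06) with Type 1 at 7.04, 6.42 and 6.87 and the others at 4.77 to 5.21 with a median of 5.02. Rspo1 read 10.88, 9.34 and 9.43, against 3.68 to 4.16 with a median of 3.85, while the related Rspo3 fell (-1.87 ± 0.41, adjusted p = 0.00745). The ligand Wnt9a rose (1.87 ± 0.23), and the secreted Dkk3 (-3.50 ± 0.35) and the receptor Fzd1 (-1.46 ± 0.31) fell. A further Fzd1 probe set differed by -0.77 and did not pass. The Wnt count of higher genes was 3 without PGF3-11. That of lower genes was 3 without any 1 of PGF2-4, PGF2-5, PGF3-3, PGF3-4, PGF3-11 or PGF3-15. With the differentiation score as a covariate 3 Wnt genes rose and 3 fell, and 2 genes of the fibroblast growth factor list rose.

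In the insulin-like growth factor axis and imprinted growth genes, 7 of 24 rose and 3 fell (41.7% called, beside 23.4% of all genes). The binding protein Igfbp2 read 11.25 in PGF2-8, 8.29 in PGF3-4 and 12.25 in PGF3-11, against 3.56 to 5.29 with a median of 3.88, so PGF3-4 was well below the other 2 Type 1 lines and still above all others (6.47 ± 0.67, adjusted p = 4.8e-05). Igf1, the ligand, read 10.77, 9.84 and 10.26, against 5.07 to 8.37 with a median of 5.37 (3.98 ± 0.79, adjusted p = 0.004). Igfbp5 went down: it read 7.05 in PGF2-8, 4.78 in PGF3-4 and 4.67 in PGF3-11, against 8.99 to 11.46 with a median of 10.17 (-4.78 ± 0.65, adjusted p = 3.37e-04), though 2 subcutaneous lines, SCF1-7 and SCF3-8, reached the Type 1 range. Only 1 of 2 probe sets for Igfbp5 passed, and the other differed by just -0.33. Among imprinted genes Peg3 rose (2.58 ± 0.28) and Ndn, necdin, fell (-1.79 ± 0.35). Grb10, an adaptor that restrains insulin receptor signalling, read 11.78, 11.43 and 11.71, against 3.44 to 10.54 with a median of 4.95. Its others spread widely, up to 10.54 in the Type 2 line PGF3-2, and the difference of 5.61 ± 1.47 was not called without PGF2-8 or PGF3-11, where the adjusted p reached 0.0658. Igf2, Igf1r and Insr did not pass, with differences of 0.14 ± 0.17, 0.19 ± 0.18 and 0.20 ± 0.26.

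Retinoid genes gave 2 higher and 3 lower of 14 (35.7% called, beside 23.4% of all genes). There were 0 lower without PGF3-11 and 1 lower without any 1 of PGF2-2, PGF2-8, PGF3-2, PGF3-4 or PGF3-15. Aldh1a1, which makes retinoic acid, read 12.66, 12.41 and 12.12, against 5.58 to 9.65 with a median of 7.89 (4.58 ± 0.75, adjusted p = 0.00133). Cyp26a1, which degrades it, read 8.32, 7.08 and 7.99, against 4.19 to 4.52 with a median of 4.44 (3.40 ± 0.20, adjusted p = 6.02e-07). Cyp26a1 entered the test through the Type 1 lines alone. Aldh1a2, another retinaldehyde dehydrogenase known in mesothelium, split the Type 1 lines instead, with 10.41 in PGF2-8, 4.98 in PGF3-4 and 6.94 in PGF3-11, PGF2-8 above and PGF3-4 below all of the others, at 5.49 to 9.74 with a median of 7.14 (adjusted p = 0.997). Dhrs3 fell (-1.65 ± 0.42, not called without PGF3-11, where the adjusted p reached 0.0896).

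Of 27 factors of fat cell formation tested, 2 rose, 12 fell and 13 did not pass, with a median difference of -0.68. In 5 of the 12 no Type 1 line was above the table's median. Without PGF3-11, 7 fell. The early B-cell factors, which mark fat cell progenitors, fell most. Ebf1 read 4.05 in PGF2-8, 4.86 in PGF3-4 and 4.31 in PGF3-11, against 8.26 to 9.72 with a median of 9.26 (27-fold lower, -4.75 ± 0.28, adjusted p = 6.02e-07). Ebf2 read 2.85, 4.54 and 3.33, against 7.20 to 8.57 with a median of 7.73 (-4.28 ± 0.35, adjusted p = 6.9e-06), and Ebf3 differed by -3.30 ± 0.29. None of these overlapped the other PGF lines, and 4 of 4 probe sets for Ebf1 passed. Pparg, the nuclear receptor at the centre of fat cell formation, read 4.17 in PGF2-8, 5.73 in PGF3-4 and 4.22 in PGF3-11, against 5.64 to 8.49 with a median of 7.89. PGF3-4 lay within the range of the others since PGF3-6 was at 5.64, and the difference was -2.90 ± 0.55, adjusted p = 0.00306. Cebpa, its partner, read 5.31, 5.55 and 4.78, against 6.11 to 9.59 with a median of 8.07 (-2.83 ± 0.68, not called without PGF3-11, where the adjusted p reached 0.0595). Zfp423, a zinc finger factor that commits progenitors to fat, differed by -3.07 ± 0.77 (not called without PGF2-8 or PGF3-11, where the adjusted p reached 0.0642). Cebpd (-1.62 ± 0.29), Rxra (-1.26 ± 0.22) and Tcf7l2 (-1.09 ± 0.17) also fell, Nfib (2.57 ± 0.49) and Klf9 (0.66 ± 0.13) rose, and Cebpb (-0.25 ± 0.21) did not pass. As the low differentiation scores of the Type 1 lines move with the label, the Ebf1 difference was also fitted with the score as a covariate, where its adjusted p was 2.87e-05; for Pparg it was 0.0317 and for Cebpa 0.112.

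Lipid genes were mixed, with 3 higher and 5 lower of 24 (33.3% called, beside 23.4% of all genes) and a median of 0.03. The fatty acid binding protein Fabp4 read 3.60, 4.38 and 3.01, against 4.74 to 8.41 with a median of 7.78 (-3.57 ± 0.75, adjusted p = 0.00573), and Fabp5 read 7.89, 7.81 and 7.71, against 9.18 to 11.12 with a median of 10.34 (-2.40 ± 0.40, adjusted p = 0.00146). The lipases Mgll (1.71 ± 0.25) and Pnpla2 (1.06 ± 0.19) rose. Of 4 probe sets for Mgll only 3 passed, and their differences ran from 0.08 to 2.84 over all 4. Lpl, lipoprotein lipase, at 12.57, 11.73 and 12.36 in Type 1, and Fasn did not pass (0.44 ± 0.57 and 0.09 ± 0.24). Adipoq and Cd36 were too low to be tested, with no PGF line above 3.96 and 3.23. The count of lower lipid genes was 2 without any 1 of PGF2-5, PGF2-8, PGF3-4, PGF3-11 or PGF3-15 and 3 without PGF3-3, and 2 with the differentiation score as a covariate. Surface genes of progenitors gave 3 higher and 1 lower of 19, a share of 21.1% called that was no higher than the 23.4% of all genes. The count of higher genes moved with single lines. There was 1 higher without PGF2-8, 2 higher without any 1 of PGF3-3, PGF3-5, PGF3-11 or PGF3-15, and 4 higher without PGF2-2 or PGF3-6. There were 2 lower without any 1 of PGF2-4, PGF2-8, PGF3-2 or PGF3-3. Pdgfrb, a platelet-derived growth factor receptor, read 8.82, 9.11 and 8.86, against 10.51 to 11.84 with a median of 11.43 (-2.35 ± 0.26, adjusted p = 7.61e-05). Pdgfra, the receptor most used to mark the progenitors, read 11.49 in PGF2-8, 8.49 in PGF3-4 and 9.40 in PGF3-11, against 9.28 to 12.14 with a median of 11.38, and did not pass (-1.34 ± 0.66, adjusted p = 0.165). Type 1 lines thus still had Pdgfra signal above the table's median. Cd55, a complement regulator of early progenitors, rose (3.52 ± 0.64), with 4 subcutaneous lines within its Type 1 range. Vcam1 rose by 1.53 (not called without PGF2-8, where the adjusted p reached 0.07). Cd34, another progenitor marker, was also called higher. It read 8.92 in PGF2-8, 9.43 in PGF3-4 and 10.17 in PGF3-11, against 3.75 to 9.93. Of the other lines only PGF2-2, at 9.93, lay in the Type 1 range.

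**Figure D4:**
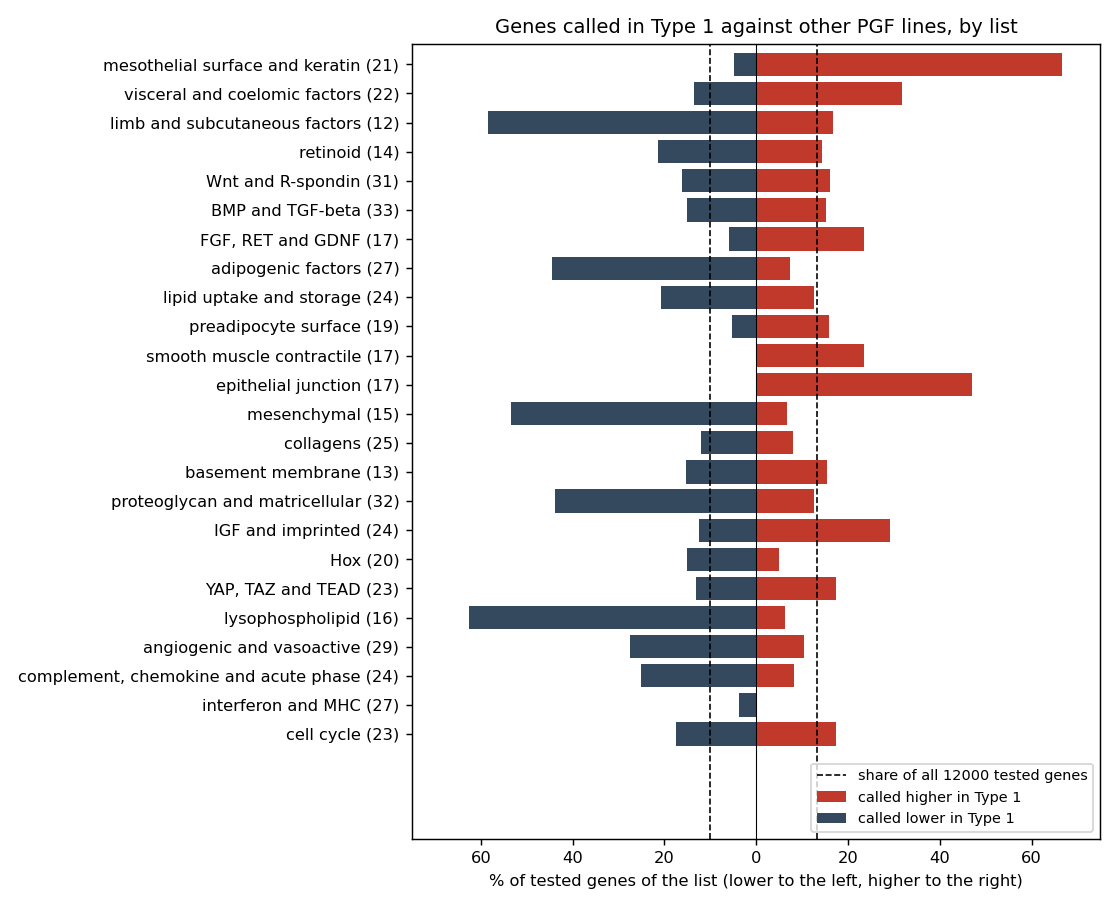
Share of the tested genes of 24 lists, those of other cell types' markers left out (vertical axis, number tested in brackets), called higher (red, to the right) or lower (dark, to the left) in Type 1, in percent (horizontal axis); dashed lines are the shares of all 12000 tested genes, 13.3% higher and 10.1% lower. Of these lists, mesothelial and junction genes extend furthest to the right, and lysophospholipid, limb, mesenchymal, adipogenic and matricellular genes furthest to the left.

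Proteoglycan and matricellular genes were lower more often than higher, while collagen and basement membrane genes were close to even. Of 32 proteoglycan and matricellular genes, 4 rose and 14 fell (median -0.74), with 8 lower without PGF3-4 and 7 with the differentiation score as a covariate. Thbs2, thrombospondin 2, read 8.31, 9.69 and 6.97, against 11.20 to 13.77 with a median of 13.17 (-4.65 ± 0.57, adjusted p = 1.84e-04), and Thbs1 differed by -2.06 ± 0.37. Sned1, a matrix glycoprotein, read 4.03, 5.00 and 4.12, against 6.52 to 11.58 with a median of 10.22 (41.9-fold lower, -5.39 ± 0.92, adjusted p = 0.00163). Versican (Vcan, -3.69 ± 0.58), tenascin X (Tnxb, -2.40 ± 0.28) and Ccn5 (-3.36 ± 0.55) fell too. The members that rose were Dcn, Ccn4, Mgp and Fbln5. Dcn, decorin, a small proteoglycan that binds collagen, read 13.32 in PGF2-8, 11.23 in PGF3-4 and 12.21 in PGF3-11, against 4.28 to 9.88 with a median of 6.28 (5.83 ± 0.94, adjusted p = 0.00114). Decorin was not high in Type 1 alone, since SCF3-9 and SCF3-16 fell in the Type 1 range. Ccn4, a Wnt-induced matricellular protein, read 10.36, 11.15 and 11.05, against 6.57 to 7.68 with a median of 6.90 (3.81 ± 0.26, adjusted p = 1.92e-06). Of 25 collagen genes 2 rose and 3 fell, a share of 20% called that was no higher than the 23.4% of all genes. Col8a2 read 9.09, 7.95 and 8.71, against 2.77 to 3.18 with a median of 2.92 (5.64 ± 0.19, adjusted p = 7.7e-09), and Col4a6, a basement membrane chain, rose by 2.88. Col8a2 entered the test through the Type 1 lines alone. Col6a3, whose fragment is endotrophin, fell (-4.16 ± 0.81, adjusted p = 0.00351), as did Col5a1 (-2.02 ± 0.20) and Col5a3 (-1.18 ± 0.32, not called without PGF2-8 or PGF3-11, where the adjusted p reached 0.0806). In the basement membrane list Lama5 (1.48 ± 0.27) and Tinagl1 (1.33 ± 0.30) rose while Nid1 (-2.76 ± 0.27) and Hspg2 (-0.62 ± 0.12) fell, of 13 tested (30.8% called, beside 23.4% of all genes). A further Hspg2 probe set differed by -0.29 and did not pass.

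Genes of lysophospholipid and sphingosine phosphate signalling had the largest share of lower members of any list. Of 16 tested, 1 rose and 10 fell, with a median difference of -1.26, and 8 to 10 fell with any line left out. In 3 of the 10 no Type 1 line was above the table's median. Receptors first: S1pr3 read 3.67 in PGF2-8, 4.64 in PGF3-4 and 6.01 in PGF3-11, against 7.47 to 11.59 with a median of 10.61 (44.3-fold lower, -5.47 ± 0.78, adjusted p = 5.20e-04). S1pr1 read 3.76, 5.00 and 4.06, against 6.82 to 9.69 with a median of 8.22 (-3.97 ± 0.52, adjusted p = 2.75e-04). The lysophosphatidic acid receptor Lpar1 fell (adjusted p = 4.05e-04), and Lpar2 was the 1 member that rose (0.89 ± 0.12). Among enzymes, Plpp3, which removes the phosphate of these lipids, read 6.14, 7.40 and 6.69, against 11.43 to 13.16 with a median of 12.30 (47.5-fold lower, -5.57 ± 0.41, adjusted p = 3.15e-06). Pla1a, a phospholipase that makes lysophosphatidylserine, read 4.98, 6.61 and 4.93, against 8.58 to 12.02 with a median of 11.11 (-5.51 ± 0.64, adjusted p = 1.20e-04), with PGF3-6 apart from the other 7 lines, which lay at 10.73 or above. Plpp1 (-1.24 ± 0.17) and S1pr2 (-0.82 ± 0.16) fell by less.

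Among secreted factors that act on vessels and leukocytes more genes fell than rose, and most did not pass. Of 29 angiogenic and vasoactive genes, 3 rose and 8 fell (37.9% called, beside 23.4% of all genes, median -0.57), and 5 rose without PGF3-6. Adm, the precursor of the vasodilator adrenomedullin, read 5.66 in PGF2-8, 5.39 in PGF3-4 and 5.86 in PGF3-11, against 8.59 to 12.91 with a median of 10.87 (33.9-fold lower, -5.08 ± 0.74, adjusted p = 5.97e-04). Vegfd (-3.12 ± 0.43), Angpt1 (-3.10 ± 0.46), Hgf (-3.03 ± 0.43) and the prostaglandin E synthase Ptges (-3.72 ± 0.43) fell. A further Angpt1 probe set differed by -0.73 and did not pass. Edn1, the vasoconstrictor endothelin 1, read 7.33, 7.06 and 7.34, against 4.78 to 5.48 with a median of 5.06 (2.18 ± 0.15, adjusted p = 2.45e-06), and the prostacyclin synthase Ptgis rose by 2.64. Sncg, gamma-synuclein, known from fat cells and neurons, read 4.37, 4.72 and 4.83, against 6.31 to 11.20 with a median of 9.98 (-4.78 ± 0.82, adjusted p = 0.00174). Of 24 complement, chemokine and acute phase genes, 2 rose and 6 fell (33.3% called, beside 23.4% of all genes, median -1.19). The chemokine Ccl8 read 6.98, 5.64 and 5.07, against 8.80 to 13.22 with a median of 10.67 (-4.94 ± 0.82, adjusted p = 0.00139). Ptx3, a soluble pattern recognition protein, read 8.12, 10.07 and 9.56, against 13.00 to 13.73 with a median of 13.19 (-3.99 ± 0.32, adjusted p = 6.66e-06). Csf1, the growth factor of macrophages, fell (-1.53 ± 0.27), and Il6 differed by -3.01 ± 0.78 (not called without PGF2-8 or PGF3-11, where the adjusted p reached 0.0712). Il33, a nuclear cytokine known from mesothelial and stromal cells, rose to 8.98, 8.42 and 7.54, against 3.62 to 5.79 with a median of 4.04 (4.00 ± 0.45, adjusted p = 9.36e-05). Ackr3, a scavenging receptor for the chemokine Cxcl12, differed by -4.72 ± 0.47, though SCF3-8 was as low as Type 1.

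The listed genes of the interferon gamma response gave few calls between lines that had all been grown with interferon gamma. Of 27 interferon gamma response and antigen presentation genes 0 rose and 1 fell, a share of 3.70% beside 23.4% of all genes, and their median difference was 0.22. At an unadjusted p under 0.05 the count over this list was 5 of 27, 3 of them higher, and with the adjusted p 1 rose without any 1 of PGF2-2, PGF3-5 or PGF3-6 and 2 fell without PGF3-15. Socs1, a feedback inhibitor of interferon signalling, was the member that fell (-0.97 ± 0.16, adjusted p = 0.00129). Mx1, an antiviral gene, ranged from 3.98 to 10.84 with a median of 7.91 in the other lines around Type 1 values of 8.51, 6.72 and 7.09 (-0.20 ± 1.30, adjusted p = 0.929). Cxcl9, a chemokine that interferon gamma induces, read 8.13, 9.49 and 6.92, against 5.40 to 13.70 with a median of 11.93, and did not pass (-2.79 ± 1.45). The MHC class II genes Cd74 (0.57 ± 0.43) and H2-Ab1 (0.69 ± 0.48) did not pass. Isg20 and Epsti1, outside this list and also known from interferon responses, were called higher. Isg20 read 10.02, 9.86 and 8.94, against 5.79 to 9.70, with PGF3-5 in the Type 1 range. Epsti1 read 8.94, 8.62 and 9.67, against 3.77 to 9.11, with PGF2-5 in that range. Other such genes outside the list were not counted.

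Contractile, YAP, cell cycle and Hox genes were called in 23.5%, 30.4%, 34.8% and 20% of the members tested, beside 23.4% of all genes. Except for YAP genes, these counts moved with single lines. Of 17 smooth muscle genes 4 rose and 0 fell (median 0.60), with 2 without PGF3-11 and 8 without PGF3-6, and 1 fell without PGF3-5. With the differentiation score as a covariate 1 rose, and with the acidification score 7. Tagln, a smooth muscle actin-binding protein, read 12.27 in PGF2-8, 13.08 in PGF3-4 and 13.24 in PGF3-11, against 6.90 to 12.62 with a median of 8.62; PGF3-6, at 12.62, lay above PGF2-8. Its difference of 4.04 ± 1.05 (adjusted p = 0.0168) was not called without PGF3-4 or PGF3-11, where the adjusted p reached 0.0709. Smtn, smoothelin, rose (2.25 ± 0.25, adjusted p = 9.15e-05), while Acta2, smooth muscle actin, did not pass (1.79 ± 0.87). Of 23 YAP and TEAD genes 4 rose and 3 fell, among them the coactivator Wwtr1, also called TAZ (0.92 ± 0.17), the upstream regulator Wwc1 (1.92 ± 0.17) and Ajuba (1.71 ± 0.19). Yap1 itself did not pass (0.10 ± 0.08). Of 23 cell cycle genes 4 rose and 4 fell. Without PGF2-8, 0 rose and 2 fell, and without PGF3-11, 2 rose, so this list turned on those lines. Cdkn1a, the p53-induced cell cycle inhibitor, read 7.28, 9.83 and 9.03, against 11.20 to 12.31 with a median of 11.60 (adjusted p = 5.43e-04), and kept its call whichever line was left out. Ccnd1, cyclin D1, was far lower in PGF2-8 than in the other 2 Type 1 lines, at 5.41, 9.54 and 9.29, against 8.54 to 11.89 with a median of 11.40 (-2.94 ± 0.87, not called without PGF2-8, PGF3-3 or PGF3-15, where the adjusted p reached 0.16). Mki67, a marker of dividing cells, did not pass (0.53 ± 0.21). Of 20 Hox genes, which record position along the body, 1 rose and 3 fell, while 0 rose and 1 fell without PGF2-8, 0 rose without PGF3-4, and 2 rose without PGF2-4 or PGF3-5. With the differentiation score as a covariate 0 Hox genes rose and 0 fell, and of the cell cycle genes 2 rose and 2 fell. The median Hox difference was -0.03, but single Hox genes split the Type 1 lines. Hoxa9 read 3.84 in PGF2-8, 9.58 in PGF3-4 and 9.59 in PGF3-11, against 8.66 to 9.89 in the other lines. Hoxa10 read 3.39, 8.13 and 8.00, against 7.06 to 8.12. Others, such as Hoxa5 and Hoxc8, were close among the 3 Type 1 lines.

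Markers of other cell types were checked because the sort had no gate. Of 6 macrophage and leukocyte markers tested 0 rose and 1 fell, Csf1r (-2.69 ± 0.63, not called without PGF2-8, where the adjusted p reached 0.0663), and 2 fell without PGF2-4 or PGF3-6. The defining leukocyte gene Ptprc was at 2.86, 2.88 and 2.99 in Type 1 and no higher than 3.18 in the others, and over 13 such markers the mean level was 4.87 to 5.02 in Type 1 and 5.06 to 5.78 in the other lines. The endothelial genes Pecam1, Cdh5 and Vwf were at most 3.60, 4.39 and 3.46 in any of the 11 lines, while Kdr, a receptor that is also known outside endothelium, rose (1.89 ± 0.56, not called without PGF2-8, PGF3-11 or PGF3-15, where the adjusted p reached 0.139), as did Esam (0.81 ± 0.16), and Tek fell (-2.11 ± 0.57, not called without PGF2-8, PGF3-4 or PGF3-11, where the adjusted p reached 0.0797). The epididymal genes Pax8 and Lcn5 were at most 3.58 and 3.70 in any of the 11 lines, and of 5 epididymal markers tested 0 rose and 1 fell, Rnase10, which did not pass without PGF2-8 or PGF3-11. Skeletal muscle markers gave 0 calls of 4 in limma, and the count at an unadjusted p under 0.05 was 0 of 4. Pericyte markers gave 0 higher and 1 lower of 6, Notch3 (-1.85 ± 0.43, adjusted p = 0.01), with 1 higher without PGF3-6.

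Germ cell and neural lists held single genes that were high. Ddx4, the germ line RNA helicase also called Vasa, read 6.86 in PGF2-8, 10.55 in PGF3-4 and 10.61 in PGF3-11, against 2.55 to 5.31 with a median of 3.13. PGF2-8 was far below the other 2 Type 1 lines and above all others, among which PGF3-5 was highest (5.98 ± 0.75, adjusted p = 2.08e-04). The germ cell genes Dazl and Tex14 were at most 3.96 and 5.12 in any of the 11 lines, and Amh and Star of the gonadal soma did not pass; of these 5 gonadal and germ cell markers tested 1 rose, and 2 without PGF2-8. Mbp, whose gene gives myelin basic protein and the longer Golli transcripts of other cells, read 10.80, 10.12 and 9.91, against 5.22 to 6.13 with a median of 5.82 (4.48 ± 0.21, adjusted p = 9.54e-08), and 4 of 4 probe sets passed. Erbb3, a neuregulin receptor, rose (2.07 ± 0.19, adjusted p = 2.06e-05). Sox10, the defining gene of glia, did not pass (-0.10 ± 0.10). Of the 5 neural and glial markers tested 2 rose and 1 fell, Tubb3, which did not pass without any 1 of PGF2-5, PGF2-8, PGF3-2, PGF3-4, PGF3-11 or PGF3-15. Gabra4, among the 15 genes raised most, is a subunit of the receptor for the transmitter GABA and read 9.87, 9.90 and 9.93, against 2.71 to 4.90 with a median of 3.16 (6.33 ± 0.48, adjusted p = 3.97e-06).

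The 3 Type 1 lines were not interchangeable. PGF3-4 was the Type 1 line closest to the others in 910 of the 1595 higher genes, against 308 for PGF2-8 and 377 for PGF3-11. Among the 1215 lower genes PGF3-4 was closest in 566, PGF2-8 in 372 and PGF3-11 in 277. Over the 15 genes lowered most, the median signal that was left, on the linear scale and as a share of the 8 other lines' median, was 3.27% in PGF3-4 (1.58% to 8.09%), 2.04% in PGF2-8 (0.632% to 11.4%) and 2.20% in PGF3-11 (1.21% to 4.09%). The widest range was thus that of PGF2-8, whose highest share left was for Igfbp5. The widest spread within Type 1 among genes that passed was seen in Krt8, Igfbp2, Krt7, Ccnd1, Epb41l3 and Tfpi. Epb41l3, a membrane skeleton protein, read 4.05 in PGF2-8, 8.87 in PGF3-4 and 7.79 in PGF3-11, against 10.90 to 11.89 with a median of 11.59 (-4.61 ± 0.74, adjusted p = 0.00109). Tfpi, an inhibitor of tissue factor coagulation, read 8.59, 8.80 and 3.88, against 9.10 to 10.75 with a median of 10.22. All 3 Type 1 lines lay below the others in Tfpi, and PGF3-11 was by far the lowest. Clone names carry the numbers 2 and 3, whose meaning the labels do not state, and Type 1 has lines of both. All 30 genes named as raised or lowered most had the same sign within the PGF2 lines (1 against 3) and within the PGF3 lines (2 against 5), as did 2808 of the 2810.

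Of the 8 other lines, PGF3-5 had the clearest low signal of the genes raised in Type 1. Over the 15 genes raised most, its linear signal above the 8 lines' median was a median of 0.879% of the way to the Type 1 mean (0.190% to 3.41%), and it was the highest of the 8 in 9 of the 15. In Krt18 it read 6.11 where the next line read 3.59, in Upk3b 7.08 against 4.77, in Stk26 6.44 against 4.06 and in Bmp4 6.18 against 4.44. Its Cd200, at 3.90, was below the 3.94 of PGF2-4. In the lowered genes Plpp3 and Adm it read 13.16 and 12.91, the highest of the 8 in both. PGF3-6 came closest to Type 1 in another set of genes. It overlapped the Type 1 range in 249 of the 2810 genes, more than any other line (PGF3-5 150, PGF2-4 121, PGF2-5 26), and it was alone in doing so in 214. In PGF3-6 Tagln was 12.62, Ptn, the growth factor pleiotrophin, 8.82 against a median of 12.05, and Evi2a 3.86 against 8.10 (not called without PGF2-8 or PGF3-11, where the adjusted p reached 0.0671). PGF3-6 also had the lowest Pparg of the 8 lines, the lowest Fabp4 at 4.74 and the lowest Col6a3 at 7.30, all towards Type 1, while its Krt18 (3.57) and Wt1 (3.53) were near the other lines. PGF3-5 was alone in the Type 1 range for Mmp13, a collagenase, at 8.42 among others with a median of 2.98 and Type 1 values of 6.82, 9.66 and 8.65. The difference of 4.58 ± 1.10 was not called without PGF3-4 or PGF3-11, where the adjusted p reached 0.057. PGF2-4 was alone in it for Cxcl5, a chemokine for neutrophils, at 4.10 where the other 7 lines were at 7.77 or above and Type 1 at 4.96, 3.15 and 3.61 (-5.04 ± 1.17, adjusted p = 0.00957).

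**Figure D5:**
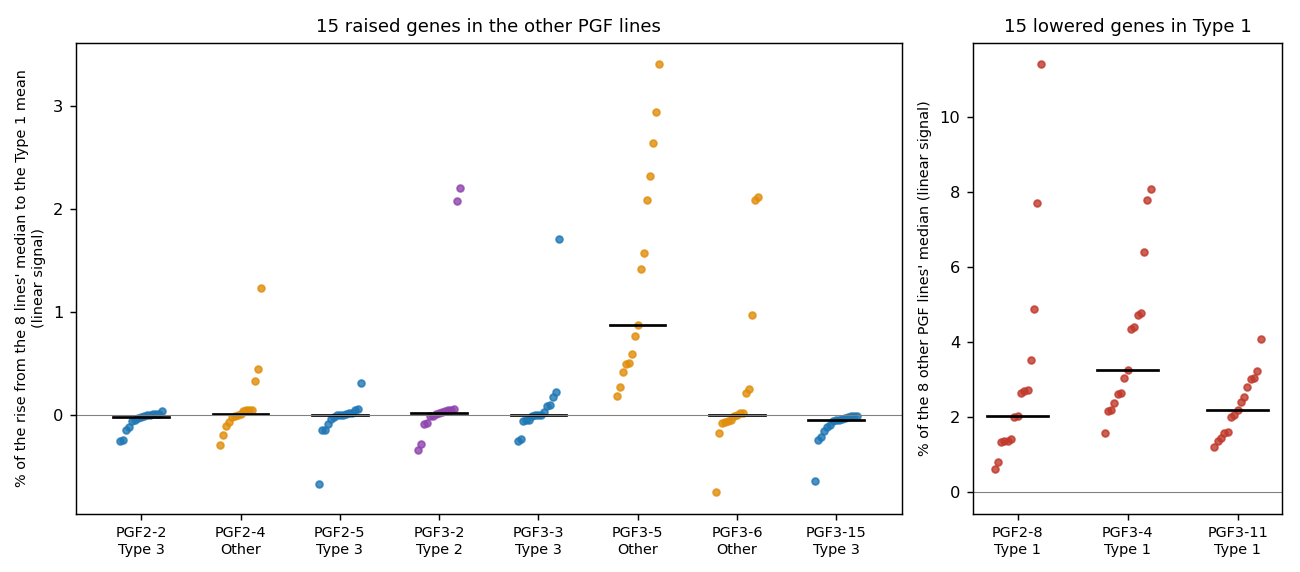
Left, each point is 1 of the 15 genes raised most in 1 of the 8 other PGF lines, as a percent of the linear rise from those lines' median to the Type 1 mean; right, each point is 1 of the 15 genes lowered most in a Type 1 line, as a percent of the 8 other lines' linear median. Black bars are medians over genes: PGF3-5 stands above 0 with a median of 0.879%, and the Type 1 lines keep 2.04% to 3.27% of the signal of the lowered genes.

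The depots were also compared without the Type 1 lines. Between the 8 other PGF lines and the 12 SCF lines, 0 of 12144 genes passed in limma (0%, smallest adjusted p = 0.665), and 597 (4.92%) had an unadjusted p under 0.05. The smallest p-values were those of Zswim7, Apmap and Adamts4 on the PGF side (differences of 0.39, 0.45 and 0.57) and Asap1, Oaf and Clec2d on the SCF side (-0.34, -0.61 and -0.47), and none of the 6 passed. Against the SCF lines, which share the Type 1 lines with the main comparison, Krt18 differed by 8.21, Wt1 by 7.16, Fgf7 by -5.76 and Ebf1 by -5.10, beside 7.87, 6.68, -5.73 and -4.75 within PGF. Of the 2140 genes that passed with no overlap among PGF lines, 1585 also lay beyond all 12 SCF lines, and 555 overlapped at least 1 of them. Among the named genes with such an overlap were Zic1, Dcn, Igfbp5, Ackr3, Cd55 and Mgp, the last a matrix protein at 10.88, 8.21 and 10.69 in Type 1 and within that range in 5 SCF lines.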

How the data were processed

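Expression was measured on a mouse array (45101 probe sets, 64 of them controls) in 23 clonal lines, 1 array each. The deposited values are log2 signals (2.03 to 14.46), a scale read from the values, and the submitters' processing notes name MAS5 with no version. They were used as deposited; array medians were 5.09 to 5.16. MAS5 scales each array by 1 factor and leaves low signals noisy. No detection calls were used. Of the probe sets, 34945 had 1 gene symbol, 932 several and 9160 none, and 34741 matched RefSeq genes by identifier. Each of 18193 genes was represented by its probe set with the highest mean over 23 lines. Genes above the table's median (5.13) in at least 3 of the 11 PGF lines were tested (12000).

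Type 1 (3 lines) was compared with the 8 other PGF lines by limma 3.58.1 (lmFit, eBayes) in R 4.3.3, with Benjamini-Hochberg adjustment over all genes tested and a threshold of 0.05. Array number limits the precision. Named genes are the 15 in each direction with the largest difference among those called with no overlap (clone and predicted names left out), up to 6 called members of each list with the largest difference and any of opposite sign, the 6 called genes with the widest range in Type 1, up to 3 per other line that alone overlapped Type 1, Wt1, Tagln and Mx1, and the 3 smallest p-values per depot. Some of these are given only in counts. Further list members named for their known roles were chosen after their values were seen. The members and lists were chosen with earlier results of these data known. Label scores were compared by exact permutation tests (scipy 1.17.1). A simulation of 3 lines against 8 used 12000 genes with independent normal values, 100 of them changed at each size. There 68% of 2-fold and 96% of 4-fold changes were recovered, with 11 false calls. A far smaller share of genes was changed than the 23.4% that passed here, so these rates need not hold for the real comparison. Alternatives changed the normalization, filter, probe set rule, covariates, weights and lines used. No 2 PGF arrays were identical (correlations 0.943 to 0.992).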

Additional observations from a re-analysis of the deposited data

Results flagged for a closer look

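The 8 other PGF lines were tested for a single outlying value in 34 measures, namely the 30 genes raised or lowered most, both label scores and both 3′ minus 5′ signals. Of these 11 held one by Dixon's criterion (critical value 0.526 for 8). Chance gives about 1 in 20, but the measures share the same lines and are not independent. In all, 7 of the 11 were PGF3-5. In PGF3-5, Krt18 was 6.11 (next line 3.59), Upk3b 7.08 (4.77), Stk26 6.44 (4.06), Bmp4 6.18 (4.44), Upk1b 7.20 (5.73), Ddx4 5.31 (3.46) and Lrrn4 4.37 (3.19), each the highest of the 8 other PGF lines. PGF3-6 was outlying in 3 of the genes, with Lratd2 at 5.50 above the next line (4.28), and Pla1a at 8.58 (next 10.73) and Galnt13 at 5.72 (next 7.68) below the others, each towards Type 1. The 3′ minus 5′ Gapdh signal of PGF2-4 was -0.089, the lowest of the 8 (next -0.0024). What set these lines apart was not tested.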

How the results depend on the processing

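No direction among the 182 named genes that passed reversed under any alternative run, and 126 kept their call whichever line was left out. Counts of genes passing over all genes tested ran from 1730 to 3119 with 1 line left out (955 to 1711 higher, 717 to 1408 lower). With only the Type 1 and Other lines in the fit, 816 passed (486 higher, 330 lower), fewer than the 1728 for the same lines where all 11 set the spread, and with the differentiation score as a covariate 1602 (970 higher, 632 lower). Array quality weights gave 6021 (3222 higher, 2799 lower), with a weight of 7.30 on PGF3-11 and a warning that the weights had not converged. Without PGF2-8 and PGF3-5 together, 1037 genes were higher. Without the filter on low values 3 genes of the retinoid list passed in place of 5. The cause of these shifts was not tested, other than the smaller number of lines where lines were left out. No paired analysis was possible because replicate numbers only follow accession order; with the number in the clone name as a replicate block instead, 2714 genes passed (1557 higher, 1157 lower). Fits within the PGF2 lines and within the PGF3 lines gave 892 and 1021. Depth has no equivalent on these arrays. Genes above the table's median in fewer than 3 of the PGF lines were left out of the main test. In the alternative without that filter, 2744 of 18193 genes passed.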

Other observations

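Some of the genes changed most belong to none of the groups above. Lratd2, of no well-known function, read 11.24 in PGF2-8, 10.22 in PGF3-4 and 10.36 in PGF3-11, against 3.25 to 5.50 with a median of 3.51 (6.81 ± 0.44, adjusted p = 1.27e-06). Ampd3, which deaminates AMP, read 5.73, 6.04 and 4.19, against 10.13 to 11.35 with a median of 10.56 (-5.33 ± 0.38, adjusted p = 2.45e-06). Galnt13, an enzyme that starts O-glycans on mucin-type proteins, read 2.99, 4.24 and 2.66, against 5.72 to 9.05 with a median of 8.63 (-4.90 ± 0.62, adjusted p = 2.16e-04). Pcdh19, a protocadherin known from neurons, read 5.82, 7.34 and 5.72, against 10.65 to 11.59 with a median of 11.02 (-4.82 ± 0.32, adjusted p = 1.77e-06). None of the 4 overlapped the other PGF lines, and each passed with any line left out.

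By chromosome, the median difference of tested genes ran from -0.049 on the X chromosome to 0.12 on chromosome 14, and the share that passed from 19.7% on chromosome 16 to 30.4% on chromosome 14, beside 23.4% over all.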
